A study of Mus musculus with 6 samples.

Results

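The glucocorticoid receptor gene Nr3c1 and 9 genes known to respond to glucocorticoids in glia were followed in mouse neural stem progenitor cells given PTN. The 10 genes were taken by symbol from a table of 22322 genes, and each symbol matched 1 gene: Nr3c1, Hif3a, Fam107a, Ddit4, Glul, Fkbp5, Tsc22d3, Sgk1, Zbtb16 and Errfi1. They were chosen by their role and by their measured levels in these same PTN and Control libraries. Their own differences, and any calls among them in the test over all genes, are therefore given only as a description. All 10 passed the filter on low counts, and the libraries of either group alone would have carried each of them past it. In all 13161 genes passed.

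RNA was sequenced from wild-type neural stem progenitor cells 24 h after PTN or, in the Control group, after PBS, with 3 libraries per group. PTN is given in the labels only as an abbreviation and is read here as pleiotrophin, a secreted heparin-binding growth factor. The series title places the addition of PTN in a conditioned medium, and neither its composition, nor the amount of PTN, nor whether it held a glucocorticoid is given in the sources used here. The labels do not say whether replicates were separate cultures or animals, so the spread between libraries may be technical.

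The glucocorticoid receptor is a ligand-activated transcription factor. Without hormone it is held in the cytoplasm by a complex of HSP90 and cochaperones. With cortisol or corticosterone bound it enters the nucleus, where it activates genes through an inverted repeat of the letters AGAACA and TGTTCT and represses many inflammatory genes. In astrocytes and neural progenitors its known targets include glutamine synthetase and several genes that dampen growth factor, mTOR or inflammatory signalling.

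The inverted repeat was looked for in the promoters of the 10 genes because it is the sequence through which the receptor is known to act. RefSeq windows of 300 bases, from 250 before to 50 after an annotated start (build GRCm38.p6), matched 8 of the 10 genes with 18 windows. The letters GNACA and TGTNC, with 3 free bases between them, were searched on both strands and stood in windows of 2 of these genes, Sgk1 and Fam107a. By windows these were 3 of 18, against 0.475% of all 32851 windows and 0.32% of the 13424 windows of tested genes. Of the 3, 2 were overlapping Fam107a windows that held the same site. By genes the repeat stood in 2 of 8 (25%), against 0.374% of the tested genes with a window. The pair had opposite differences after PTN: Sgk1 was higher and Fam107a lower (values below). Their windows follow 5′ to 3′ on the strand of the gene, and capitals mark the whole repeat, free bases included, and every single arm TGTTCT or AGAACA, which can overlap it.
Sgk1, chr10:21993640-21993939, plus strand: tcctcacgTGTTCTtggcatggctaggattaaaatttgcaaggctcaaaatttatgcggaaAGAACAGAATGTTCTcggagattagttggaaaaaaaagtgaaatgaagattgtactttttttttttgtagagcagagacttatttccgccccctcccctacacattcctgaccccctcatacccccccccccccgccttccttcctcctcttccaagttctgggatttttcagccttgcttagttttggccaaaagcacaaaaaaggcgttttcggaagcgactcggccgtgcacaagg
Fam107a, chr14:8309730-8310029, minus strand: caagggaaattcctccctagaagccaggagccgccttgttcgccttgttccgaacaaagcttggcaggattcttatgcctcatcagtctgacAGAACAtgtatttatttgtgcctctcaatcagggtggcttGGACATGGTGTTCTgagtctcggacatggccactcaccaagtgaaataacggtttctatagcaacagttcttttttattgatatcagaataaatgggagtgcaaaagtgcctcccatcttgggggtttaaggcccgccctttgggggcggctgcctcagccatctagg

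In the Sgk1 window the repeat lay at bases -188 to -176 from the start, and in the Fam107a window at bases -118 to -106. A second Fam107a window, chr14:8309728-8310027, overlapped the one shown and held the same repeat, while the window at chr14:8317558-8317857 did not hold it. Sgk1 had 6 windows, of which 1 held the repeat. Neither the start used in these cells nor any binding of the receptor was measured.

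Among 40 further genes known to be induced by glucocorticoids, 32 had a window and 3 of these held the repeat: Txnip, Map3k6 and Mt1. The 5 matches are set beside each other to show where they vary, with the fixed letters of the motif in capitals and the free letters in lower case.
Sgk1: GaACAgaaTGTtC
Fam107a: GgACAtggTGTtC
Mt1: GgACAtgaTGTtC
Map3k6: GcACAggcTGTtC
Txnip: GcACAccgTGTcC

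None of the 3 was called different after PTN by edgeR's quasi-likelihood test, with log2 fold changes of -0.59 for Txnip, -0.03 for Map3k6 and 0.10 for Mt1. Outside the 10 genes, 37 tested genes had the repeat in a window, and 1 of them was called higher and 3 lower, or 10.8%, against 7.99% of all genes tested. The looser core ACANNNTGT, which lies within the repeat, also stood in a window of Glul, at bases -25 to -17, and in all in 5 of the 18 windows (27.8%), against 4.13% of the windows of tested genes. By genes this core stood in 37.5% of the 8 and in 4.97% of the tested genes with a window. The capitals in the Glul window mark it.
Glul, chr1:153899679-153899978, plus strand: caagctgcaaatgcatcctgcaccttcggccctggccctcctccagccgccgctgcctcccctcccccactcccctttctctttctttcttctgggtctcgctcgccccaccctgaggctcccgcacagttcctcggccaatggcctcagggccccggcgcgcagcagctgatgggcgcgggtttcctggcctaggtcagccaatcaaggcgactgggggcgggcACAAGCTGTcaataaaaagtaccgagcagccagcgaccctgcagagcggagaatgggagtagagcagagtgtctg

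The single arm TGTTCT, on both strands, was found in 6 of the 18 windows (33.3%), those of Sgk1, Fam107a and Tsc22d3, and in 12.3% of the windows of tested genes. By genes the arm stood in 37.5% of the 8 and in 14.6% of the tested genes with a window. Windows of Hif3a, Ddit4, Fkbp5 and Errfi1 held none of these 3 letter patterns. The hypoxia response core ACGTG stood in 5 of the 18 windows (27.8%), 1 each of Errfi1, Sgk1, Ddit4, Fam107a and Fkbp5, and in 24.9% of the windows of tested genes. By genes these were 62.5% of the 8 and 29.1% of the tested genes with a window. These matches are descriptions of sequence.

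After PTN 8 of the 10 genes had lower mean levels and 2, Sgk1 and Nr3c1, higher ones. The largest differences were those of Fam107a, 11.3-fold lower, and Hif3a, 5.21-fold lower. Ddit4 and Glul were 1.91-fold and 2.01-fold lower, and Sgk1 2.2-fold higher. These 5 passed an adjusted p under 0.05 in edgeR's test over all genes, 1 higher and 4 lower. Of the 13161 genes tested 7.99% passed, 4.93% higher and 3.06% lower. The 2 groups did not overlap in 9 of the 10 genes, 1 with PTN higher and 8 with PTN lower. Of all genes tested 32.9% did not overlap, 15.7% with PTN higher and 17.1% with PTN lower. Because the genes were picked with this comparison in view, nothing is read from these shares.

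**Figure D1:**
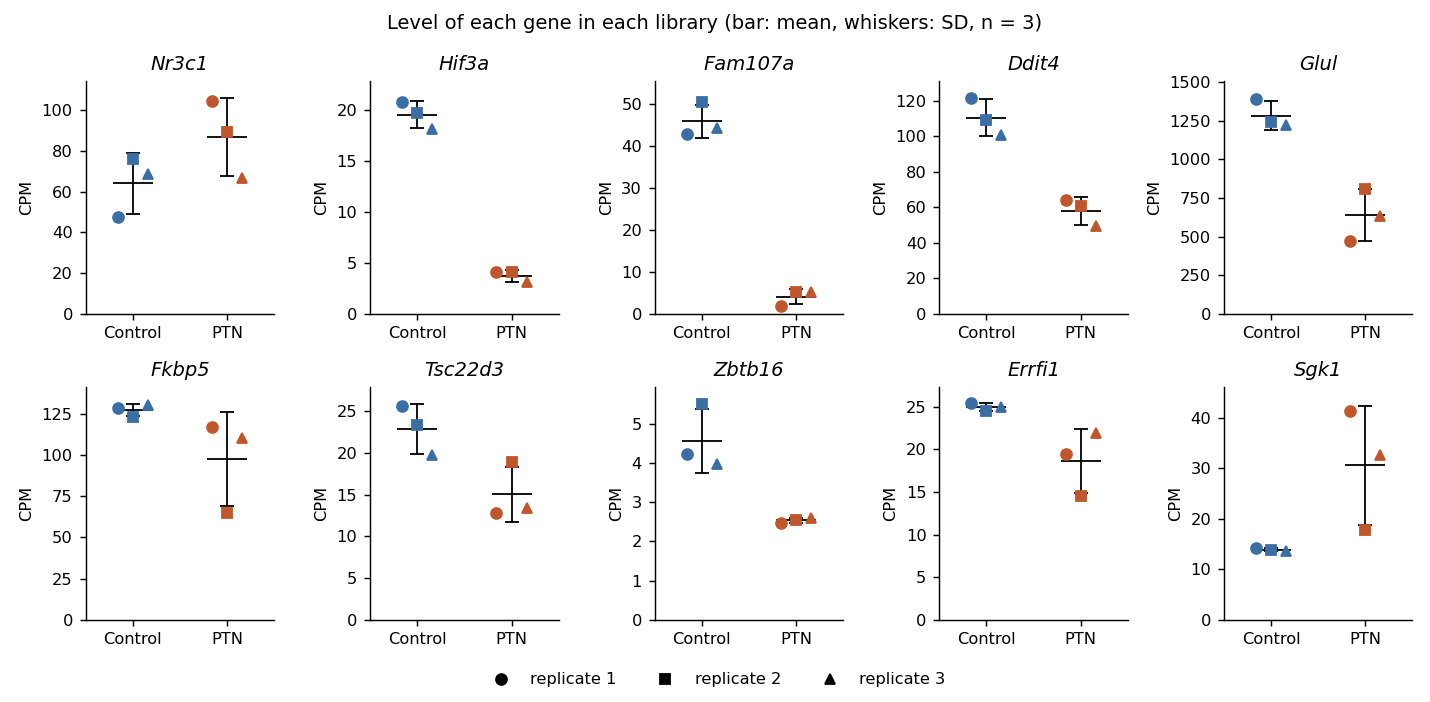
CPM of each gene in the 3 Control and 3 PTN libraries, each axis starting at 0, with points for libraries, a bar for the group mean and whiskers for the SD. Groups overlap only for Nr3c1, and in Sgk1, Fkbp5 and Errfi1 the library PTN 2 is the lowest of the PTN group.

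Nr3c1 itself stood at 47.5, 76.1 and 68.7 CPM (the count relative to the TMM-scaled library total) in Control 1, Control 2 and Control 3 and at 105, 89.2 and 66.6 CPM in PTN 1, PTN 2 and PTN 3. The groups overlapped, PTN 3 lying below Control 2 and Control 3. Its log2 fold change, PTN minus Control, was 0.44 ± 0.22 (SE, n = 3 each). Without Control 1 it was 0.24 and without PTN 1 it was 0.28, while it was 0.60 without PTN 3. With a trend on gene length removed from each library it was 0.22. Nr3c1 lay in the longest eighth of the tested genes, whose median log2 fold change was 0.30, against -0.24 in the shortest eighth.

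Among 12450 genes the profile of Nr3c1 over the 6 libraries was compared by the root mean square difference of log2 CPM centred on its mean over the libraries. Of the 5 genes most like it, the 4 with whole counts were Pdzd8 (0.0216), Nae1 (0.0308), Ngly1 (0.0377) and Kpna4 (0.0407). Control 1 was the lowest library for Nr3c1 and for these 4, which follows from their choice by likeness to Nr3c1. Transcripts of mitochondrial DNA took 4.47% of the counts in Control 1 and 3.97% in PTN 3, against 5.76% to 8.12% in the other 4 libraries. Control 1 and PTN 3 were thus the lowest libraries of their groups in Nr3c1 and in this share. The part of the share in the level of Nr3c1 was not tested.

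**Figure D2:**
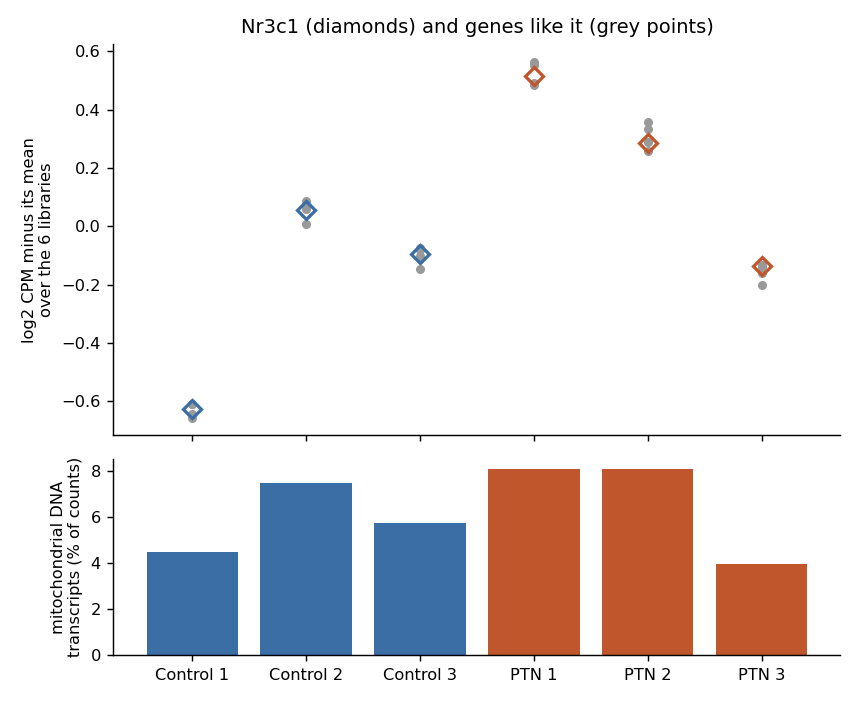
Upper panel, log2 CPM of Nr3c1 (diamonds) and of Pdzd8, Nae1, Ngly1 and Kpna4 (grey points) in each library, less the gene's mean over the 6 libraries. Lower panel, the share of counts from mitochondrial DNA transcripts in percent, lowest in PTN 3 (3.97%) and Control 1 (4.47%).

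Fam107a encodes an actin-associated protein of radial glia and astrocytes, induced by stress hormones. Control 1, Control 2 and Control 3 had 43, 50.5 and 44.5 CPM, and PTN 1, PTN 2 and PTN 3 had 1.94, 5.26 and 5.1 CPM. Every PTN library lay far below every Control library, and PTN 1, with 50 counts, was the lowest. The log2 fold change was -3.50 ± 0.34 (SE, n = 3 each). The 5 genes most like it were Mylk2 (root mean square difference 0.344 on the log2 scale), Gsx2 (0.411), Cntnap2 (0.439), Ky (0.53) and Tgm1 (0.557). Each of these distances was larger than the 0.0407 of Kpna4 from Nr3c1. All 5 were lower in PTN, which follows from their choice by likeness to Fam107a. Gsx2, at 0.194 to 0.26 CPM in PTN, and Ky, at 0.388 CPM in PTN 1, would not have passed the filter through PTN alone. Fam107b, the relative of Fam107a, was not called (37.2 ± 5.23 against 53.7 ± 6.71 CPM, SD, n = 3 each; edgeR adjusted p = 0.0874).

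Hif3a, a member of the hypoxia-inducible factor family with forms that can oppose the other family members, stood at 20.8, 19.7 and 18.2 CPM in Control and at 4.11, 4.06 and 3.07 CPM in PTN. The libraries within each group were close together and the groups were far apart. The log2 fold change was -2.38 ± 0.19 (SE, n = 3 each), and -2.65 with the length trend removed. Its relatives Hif1a and Epas1 were not called. Hif1a averaged 108 ± 28.4 CPM without and 169 ± 33.4 CPM with PTN (SD, n = 3 per group; adjusted p by edgeR = 0.12). Epas1 was at 173 ± 13.3 and 114 ± 21.9 CPM (edgeR adjusted p = 0.0665, but 0.0164 by DESeq2, 0.0433 with the length trend removed and 0.02 without PTN 3, the range over single libraries left out being 0.02 to 0.191).

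Ddit4 encodes an inhibitor of mTORC1 that acts through the TSC complex. It stood at 121, 109 and 101 CPM in Control and at 63.8, 60.4 and 49.2 CPM in PTN, with no overlap. Its log2 fold change was -0.93 ± 0.16 (SE, n = 3 each). Tsc1 and Tsc2, the genes of that complex, and Sesn2, a sestrin that also restrains mTORC1, were not called by edgeR. Tsc1 was at 29.4 and 36.1 CPM, Tsc2 at 112 and 99 CPM and Sesn2 at 111 and 118 CPM in Control and PTN, and the counts of Tsc2 were fractional in all 6 libraries, as for genes that share reads.

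Glul encodes glutamine synthetase, which converts glutamate and ammonia to glutamine in astrocytes. It was the most abundant of the 10 genes, at 1390, 1240 and 1220 CPM in Control and at 473, 807 and 636 CPM in PTN. PTN 2 was the highest PTN library and still lay below every Control library. For Glul the log2 fold change was -1.01 ± 0.21 (SE, n = 3 each). Slc38a3, the glutamine transporter of the same cells, fell 3.03-fold, from 231 ± 33.7 to 76.1 ± 21.6 CPM (SD, n = 3 per group; adjusted p by edgeR = 0.0064, range 0.00566 to 0.0282 with 1 library left out). The glutamate transporter genes were not called, Slc1a2 being at 768 ± 130 and 434 ± 208 CPM (edgeR adjusted p = 0.133) and Slc1a3 at 1666 ± 159 and 2149 ± 81.2 CPM (edgeR adjusted p = 0.165).

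Markers of astrocytes moved beside Glul. All 18 of the astrocyte list were above 1 CPM on average and none was at 0. The list holds neither Glul nor any other of the 10 genes. Its summed level was 17314 to 18341 CPM in Control and 8630, 14241 and 10594 CPM in PTN 1, PTN 2 and PTN 3, the same order of the PTN libraries as for Glul. In the list 4 of 18 fell and 0 rose at an adjusted p under 0.05 by edgeR, and its median log2 fold change was -0.04, against 0.03 over all genes tested. The 4 were 22.2% of the list, against 3.06% called lower over all genes tested. Gjb6, 1 of the 4, passed the filter only through Control. In such bulk samples fewer cells of a type and less RNA per cell cannot be told apart. The part of the astrocyte markers in the levels of Glul, Fam107a and the other glial genes was not tested.

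Fkbp5, the cochaperone that lowers hormone binding by the receptor and is itself induced by it, stood at 129, 123 and 130 CPM in Control and at 117, 64.6 and 110 CPM in PTN. PTN 2 lay well below the other PTN libraries. The log2 fold change was -0.39 ± 0.22 (SE, n = 3 each), and -0.16 without PTN 2. Its close relative Fkbp4, a cochaperone that favours transport of the receptor to the nucleus, was at 235 ± 27.6 and 200 ± 34.8 CPM (SD, n = 3 each) and was not called (edgeR adjusted p = 0.383).

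Tsc22d3 encodes GILZ, a leucine zipper protein through which glucocorticoids restrain inflammatory signalling. It stood at 25.6, 23.3 and 19.7 CPM in Control and at 12.8, 18.9 and 13.4 CPM in PTN, where PTN 2 came within 1 CPM of Control 3. The log2 fold change was -0.61 ± 0.20 (SE, n = 3 each), and without PTN 2 it was -0.81 and passed the adjusted p of 0.05. Its relatives Tsc22d1, Tsc22d2 and Tsc22d4 had adjusted p by edgeR of 0.707, 0.0611 and 0.066, so none was called.

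Zbtb16, the zinc finger repressor PLZF, was the lowest of the 10 in Control, at 4.23, 5.5 and 3.98 CPM, with 85 to 144 counts per library. In PTN it stood at 2.48, 2.54 and 2.6 CPM, with 50 to 64 counts. The PTN libraries were nearly equal and all lay below the Control libraries. For Zbtb16 the log2 fold change was -0.85 ± 0.24 (SE, n = 3 each). It was called by DESeq2 and with the length trend removed, at -0.98, but not in the fit reported here.

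Errfi1 encodes an inhibitor of the EGF receptor. It was at 25.4, 24.5 and 25 CPM in Control and at 19.4, 14.5 and 21.9 CPM in PTN. The Control libraries differed by under 1 CPM and every PTN library was lower, PTN 2 most. For Errfi1 the log2 fold change was -0.42 ± 0.18 (SE, n = 3 each), and -0.27 without PTN 2. Egfr rose 1.76-fold, from 257 ± 22.4 to 452 ± 90.8 CPM (SD, n = 3 per group; adjusted p by edgeR = 0.0276, range 0.0146 to 0.128 with 1 library left out, and over 0.05 without any 1 of PTN 1 and the Control libraries). With the length trend removed the rise of Egfr had an edgeR adjusted p = 0.0989. Erbb3, another receptor of the family, passed the filter only through Control, so its direction was fixed by the filter. It fell 7.27-fold, from 4.91 ± 0.381 to 0.661 ± 0.384 CPM (edgeR adjusted p = 0.00623, range 0.00274 to 0.0317 with 1 library left out).

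Sgk1, a kinase named for its induction by serum and glucocorticoids, differed in the opposite direction from most of the group. It stood at 14.2, 13.9 and 13.6 CPM in Control and at 41.3, 17.9 and 32.6 CPM in PTN. The Control libraries were nearly equal, and the PTN libraries ranged from 1.29 to 2.97 times the Control mean, PTN 2 being the lowest. For Sgk1 the log2 fold change was 1.14 ± 0.28 (SE, n = 3 each). Nedd4l, a ubiquitin ligase that SGK1 phosphorylates, fell 1.49-fold, from 64.3 ± 0.584 to 43.3 ± 5.92 CPM (SD, n = 3 per group; adjusted p by edgeR = 0.0497, range 0.0372 to 0.159 with 1 library left out, under 0.05 only without PTN 3, 0.0508 scaled by library totals and 0.0548 with no filter). The related kinase gene Sgk3 was not called, at 19.7 and 24.4 CPM.

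The calls of Glul and Sgk1 were not kept in every fit with 1 library left out. Glul was not called without Control 1 (log2 fold change -0.97), Control 2 (-1.07), Control 3 (-1.08) or PTN 1 (-0.83). Sgk1 was not called without the same libraries, in the same order at 1.12, 1.09, 1.08 and 0.86, nor by limma-voom at 1.06 or with the length trend removed at 1.14. Calls over the whole table, 649 higher and 403 lower, also fell in these fits. They were 201 to 232 higher and 130 to 172 lower without any 1 Control library, and 354 and 159 without PTN 1. As the genes were chosen on these values, a call kept or lost is given only as a description.

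**Figure D3:**
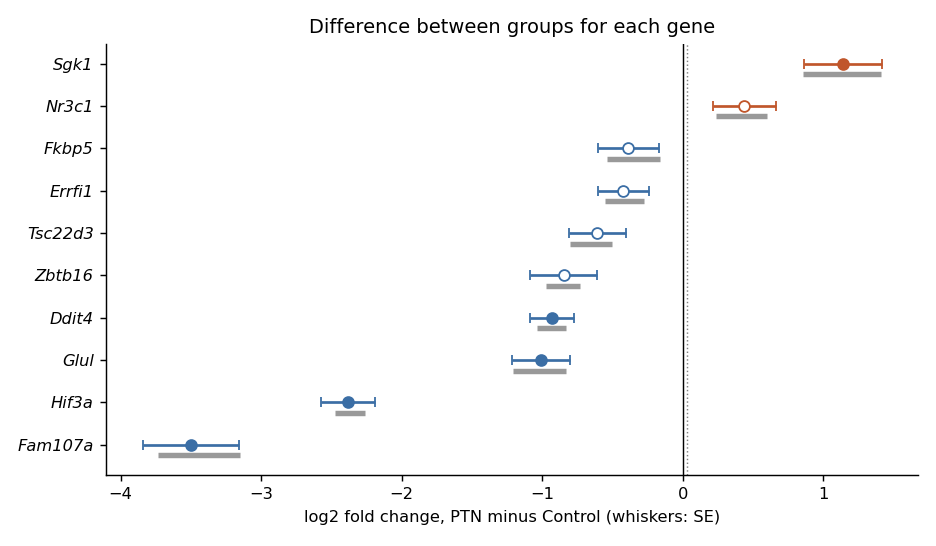
Log2 fold change of each gene, PTN minus Control, with its SE. Filled points passed an adjusted p under 0.05 in edgeR's test over all genes, grey bars span the values with each library left out in turn, and the dotted line is the median of all genes tested (0.03). Every gene keeps its sign, from -3.50 for Fam107a to 1.14 for Sgk1.

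The PTN libraries did not keep 1 order over the 10 genes. PTN 1 was the highest of them for Nr3c1, Hif3a, Ddit4, Fkbp5 and Sgk1 and the lowest for Fam107a, Glul, Tsc22d3 and Zbtb16. PTN 2 was the highest for Fam107a, Glul and Tsc22d3 and the lowest for Sgk1, Fkbp5 and Errfi1. The coefficient of variation was larger in PTN than in Control for 8 of the 10 genes, with medians of 22.2% and 7.96%. It was larger in PTN for 71.2% of all genes tested, with medians of 18.6% and 13.1%.

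Levels were compared between genes by the deposited FPKM, which divides by gene length. In Control the mean order was Glul (541 ± 34.8 FPKM, SD, n = 3), Ddit4, Fkbp5, Fam107a, Tsc22d3, Nr3c1, Errfi1, Sgk1, Hif3a and Zbtb16 (1.14 ± 0.263 FPKM). Neighbours in that order did not overlap between libraries, except Tsc22d3 and Nr3c1. In PTN the order was Glul (267 ± 77 FPKM), Ddit4, Fkbp5, Nr3c1, Sgk1, Tsc22d3, Errfi1, Fam107a, Hif3a and Zbtb16 (0.59 ± 0.0819 FPKM). There only Glul and Ddit4, and Errfi1 and Fam107a, were separated as neighbours, and all other neighbours overlapped. Fam107a stood 4 places lower in the PTN order than in the Control order, and Sgk1 3 places higher.

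**Figure D4:**
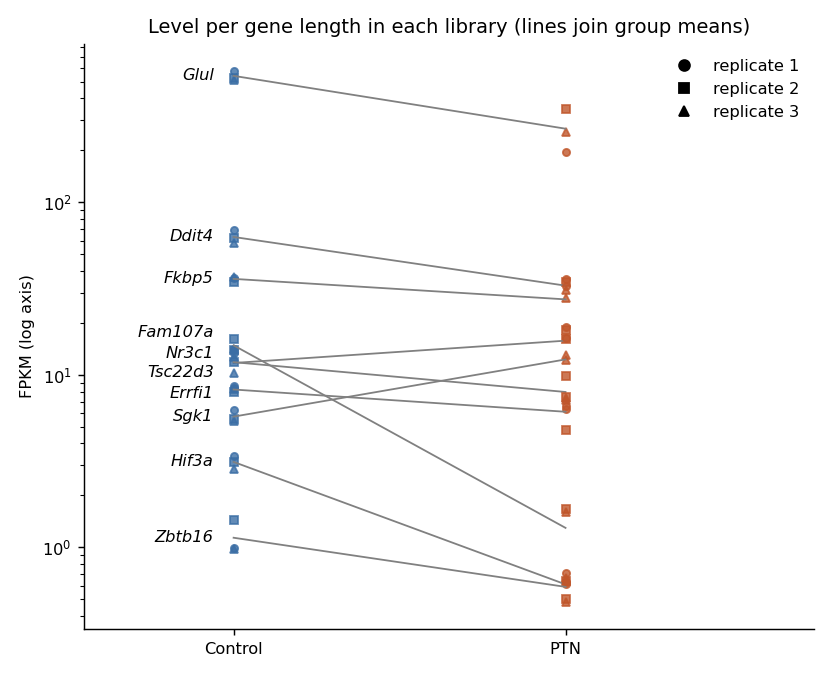
FPKM of each gene in each library on a log axis, with lines joining the group means. Glul lies far above the rest in both groups, and the lines of Fam107a and Sgk1 cross those of their neighbours.

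The machinery around the receptor showed no called difference. Of 30 listed genes for hormone supply, the related mineralocorticoid receptor, chaperones and coregulators, 27 were tested and 0 were called in either direction by edgeR. Over all genes tested 7.99% were called, and in a list of 27 little can be read from a count of 0. At an unadjusted p under 0.05 edgeR had 3 higher and 2 lower, DESeq2 called 1 higher and 0 lower, and limma-voom 0. The median log2 fold change was 0.19, against 0.03 over all genes tested. Over all genes the median differed with gene length, from -0.24 in the shortest eighth to 0.30 in the longest. The part of length in the median of the list was not tested. Med14, a Mediator subunit, had the smallest p, at 75.6 ± 9.32 and 115 ± 21.8 CPM (SD, n = 3 per group; adjusted p by edgeR = 0.0759, range 0.04 to 0.242 with 1 library left out and passing only without PTN 2; DESeq2 adjusted p = 0.0233). Its log2 fold change was 0.61, and 0.36 to 0.61 over the alternative fits that kept every library. Nr3c2, the mineralocorticoid receptor, which also binds corticosterone, was low, at 2.82 ± 0.178 and 4.1 ± 1.65 CPM (edgeR adjusted p = 0.285). Hsd11b1, the enzyme that regenerates active hormone, passed the filter only through Control, and was at 1.38 ± 0.111 and 0.615 ± 0.293 CPM (edgeR adjusted p = 0.115). Hsd11b2, the enzyme that inactivates the hormone, was at 0.0845 to 0.364 CPM and was not tested.

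The chaperone genes of the receptor were abundant in every library. Hsp90ab1 was at 2200 ± 46.1 and 1932 ± 168 CPM (SD, n = 3 each) and Ptges3, the cochaperone p23, at 135 ± 19.9 and 139 ± 20.3 CPM in Control and PTN. Hsp90aa1 stood at 306, 627 and 483 CPM in Control and 1016, 710 and 405 CPM in PTN, where Control 1 and PTN 3 were again the lowest of their groups.

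Other genes known to be induced by glucocorticoids went in both directions. Of 39 tested, 2 were called higher and 3 lower, and the median log2 fold change was 0.03, equal at this precision to that of all genes tested. The shares called were 5.13% higher and 7.69% lower, against 4.93% and 3.06% of all genes tested. Over the 36 genes that either group alone would have carried past the filter, 2 were called higher and 2 lower. Of the 39, those called lower were Gpd1, Gjb6 and Per1. Gpd1, the glycerol phosphate dehydrogenase induced by glucocorticoids in glia, fell 2.94-fold, from 1043, 804 and 847 CPM in Control to 305, 215 and 395 CPM in PTN (edgeR adjusted p = 0.00672, range 0.00257 to 0.0299 with 1 library left out). Per1, a clock gene and direct target of the receptor, fell 1.68-fold, from 69.1, 50.1 and 55 CPM to 30.5, 35.1 and 38.1 CPM (edgeR adjusted p = 0.0324, range 0.0238 to 0.109 with 1 library left out, and under 0.05 only without PTN 3). Gjb6, the gap junction gene connexin 30, passed the filter only through its Control libraries, so its direction was fixed by the filter. It fell 8.4-fold, from 2.78 ± 0.445 to 0.324 ± 0.416 CPM (SD, n = 3 per group; adjusted p by edgeR = 0.0319, range 0.00358 to 0.11 with 1 library left out, and over 0.05 without any 1 of PTN 1 and the Control libraries). Without PTN 2 its log2 fold change was -4.90 in place of -3.07.

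The higher ones were Cebpd and Tgfbr3. The counts of Cebpd were fractional in all 6 libraries, as for genes that share reads. Cebpd, a transcription factor of the acute phase response, rose 2.12-fold, from 59.8, 46.5 and 55.3 CPM to 82.9, 125 and 136 CPM (edgeR adjusted p = 0.0172, range 0.0135 to 0.0878 with 1 library left out, and over 0.05 without any 1 of the Control libraries). Tgfbr3, a TGF-beta coreceptor, rose 2.46-fold, from 1.39 ± 0.23 to 3.42 ± 0.828 CPM (SD, n = 3 per group; adjusted p by edgeR = 0.0347, range 0.0463 to 0.143 with 1 library left out, over 0.05 in all but those without PTN 1 and PTN 3, and 0.101 with the length trend removed). Klf9, another direct target, was at 86.2 ± 13.1 and 67.3 ± 11.2 CPM and was not called (edgeR adjusted p = 0.233). DESeq2 called 8 of the 39 higher and 4 lower.

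Inflammatory genes known to be repressed by glucocorticoids were mostly too low to be measured, and those that were called were higher with PTN. Of 22 listed, 12 were too low to be tested, among them Il6, Tnf and Il1b. Of the 10 tested 5 rose and 0 fell by edgeR, against 4.93% and 3.06% of all genes tested. Ccl2, Ccl7 and Pomc passed the filter only through their PTN libraries, so their direction was fixed by it, and Mmp3 passed through neither group alone. Over the 6 genes that either group alone would have carried past the filter, 3 rose and 0 fell, all 6 log2 fold changes were positive and the median was 1.55, against 0.03 over all genes tested. Over the 10 genes edgeR had, at an unadjusted p under 0.05, 8 higher and 0 lower, DESeq2 called 7 higher and 0 lower, and limma-voom 4 higher and 0 lower. These counts are over all 10, the genes with a direction fixed by the filter included. Several of these rises were known before the list was drawn up, so the list is no independent evidence of its direction. Vcam1, an adhesion molecule, rose 2.66-fold, from 85.5, 126 and 112 CPM to 253, 336 and 273 CPM (edgeR adjusted p = 0.00515, range 0.00412 to 0.0319 with 1 library left out). Cxcl10, a chemokine, rose 3.85-fold, from 4.9, 4.55 and 4.82 CPM to 9.43, 25 and 20.6 CPM (edgeR adjusted p = 0.0113, range 0.00504 to 0.0567 with 1 library left out, and over 0.05 without Control 1 and without Control 3).

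The chemokine genes Ccl2, Cxcl1 and Ccl7 were low in Control and highest in PTN 3. Ccl2 and Ccl7 passed the filter only through PTN, so their direction was fixed by the filter and their values are given as a description. Ccl2 rose from 0.507, 0.115 and 0.515 CPM to 4.93, 2.59 and 13.8 CPM (edgeR adjusted p = 0.0117, range 0.00747 to 0.0507 with 1 library left out, and over 0.05 without Control 1). Cxcl1 rose from 2.24, 1.26 and 1.17 CPM to 9.58, 5.75 and 23.7 CPM (edgeR adjusted p = 0.0122, range 0.00567 to 0.0539, and over 0.05 without Control 3). Ccl7 rose from 0.296, 0.153 and 0.0936 CPM to 0.931, 0.803 and 4.01 CPM (edgeR adjusted p = 0.0353, range 0.0276 to 0.127, over 0.05 without any 1 of the Control libraries, and 0.0592 by limma-voom). Without PTN 3 the log2 fold changes of Ccl2, Cxcl1 and Ccl7 were 3.32, 2.30 and 2.22, against 4.24, 3.05 and 3.34 with it. Of 8 microglia markers 7 were under 1 CPM on average, and their summed level was 2.11 to 4.13 CPM in Control and 2.86 to 3.1 CPM in PTN.

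The nearest relatives and partners of the 10 genes were mixed: of 29 tested, 2 rose and 3 fell, with a median log2 fold change of 0.08. The shares were 6.9% and 10.3%, against 4.93% and 3.06% of all genes tested. Over the 28 genes that either group alone would have carried past the filter, 2 rose and 2 fell. Besides Egfr, Erbb3, Slc38a3 and Nedd4l the other called gene was Arnt2, a partner subunit of the hypoxia-inducible factors, which rose 1.5-fold, from 198 ± 9.71 to 298 ± 28.9 CPM (SD, n = 3 per group; adjusted p by edgeR = 0.0385, range 0.0454 to 0.173 with 1 library left out, under 0.05 only without PTN 3, 0.0547 with upper-quartile scaling and 0.215 with the length trend removed).

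Hif3a and Ddit4 are also known targets of hypoxia, and Ddit4 of the ATF4 stress response, so both lists were read beside them. Of 19 hypoxia response genes tested 0 rose and 2 fell, with a median log2 fold change of -0.29. The 2 were 10.5%, against 3.06% called lower over all genes tested. Over the 18 genes that either group alone would have carried past the filter, 0 rose and 1 fell, with a median of -0.28. Over all 19 edgeR had, at an unadjusted p under 0.05, 1 higher and 7 lower. DESeq2 called 1 higher and 4 lower, and limma-voom 0 higher and 4 lower. Ldha, lactate dehydrogenase, fell 1.73-fold, from 880 ± 85 to 510 ± 124 CPM (SD, n = 3 per group; adjusted p by edgeR = 0.0482, range 0.0165 to 0.135 with 1 library left out, under 0.05 only without PTN 3, and 0.059 with the length trend removed). Car9, a carbonic anhydrase, passed the filter only through Control, so its direction was fixed by the filter. It fell 4.33-fold, from 2.64 ± 0.805 to 0.595 ± 0.459 CPM (edgeR adjusted p = 0.0493, range 0.0333 to 0.17, under 0.05 only without PTN 1, 0.0524 with DESeq2 size factors and 0.0649 with the length trend removed).

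Of 18 tested genes of the ATF4 response 3 rose and 1 fell, with a median of -0.02. The shares were 16.7% and 5.56%, against 4.93% and 3.06% of all genes tested. Vldlr, a lipoprotein receptor, rose 2.27-fold (edgeR adjusted p = 0.00992, range 0.00566 to 0.0506 with 1 library left out, and over 0.05 without Control 3), from 35.5 ± 6.43 to 80.4 ± 15.4 CPM (SD, n = 3 each). Nupr1, a stress-induced chromatin protein, rose 2.38-fold (edgeR adjusted p = 0.0276, range 0.0192 to 0.0942, and over 0.05 without any 1 of PTN 1 and the Control libraries). Ddit3, which encodes CHOP, rose 1.83-fold (edgeR adjusted p = 0.0281, range 0.0304 to 0.162, and over 0.05 without any 1 of the Control libraries or PTN 2). Phgdh, the entry enzyme of serine synthesis, fell 1.82-fold (edgeR adjusted p = 0.0297, range 0.00829 to 0.0989, and under 0.05 only without PTN 3). Of the 18 log2 fold changes 9 were negative and 9 positive. At an unadjusted p under 0.05 edgeR had 6 higher and 5 lower, DESeq2 called 5 higher and 2 lower, and limma-voom 3 higher and 1 lower. The list thus went both ways, and the part of the ATF4 response in the level of Ddit4 was not tested.

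**Figure D5:**
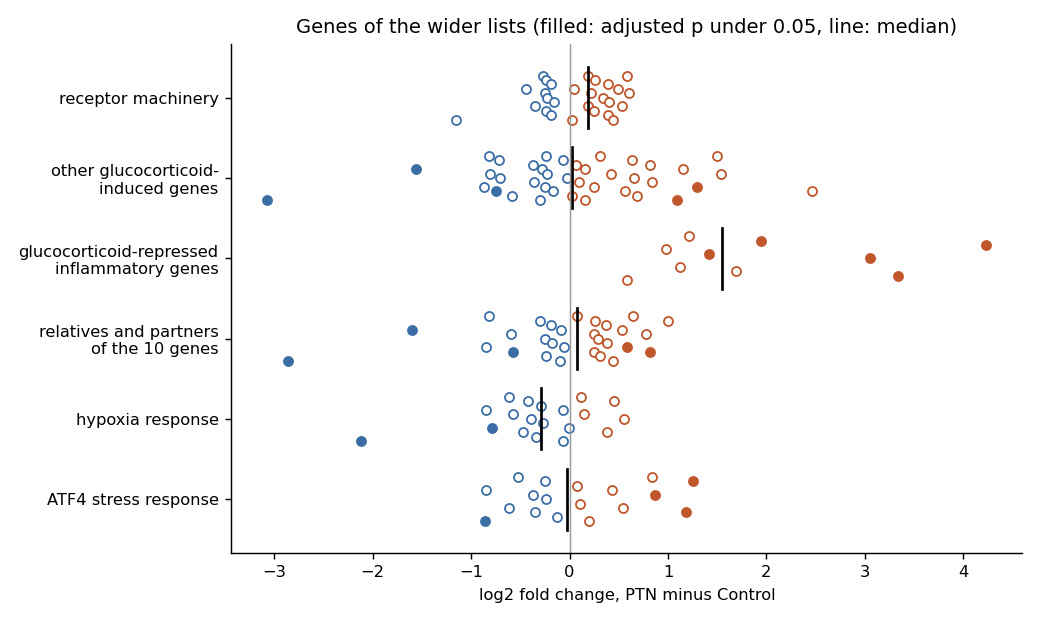
Log2 fold change, PTN minus Control, of each tested gene of 6 lists, with filled points for an adjusted p under 0.05 by edgeR and a line at each list's median. The tested inflammatory genes lie above 0, Ccl2, Ccl7 and Pomc among them having passed the filter only through PTN. Of the other lists, Angptl4 and Pck1 passed it only through PTN, and Hsd11b1, Gjb6, Erbb3 and Car9 only through Control. The receptor machinery holds no filled point, and the remaining lists spread to both sides.

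Depth was 19267764 to 26341745 counts per library, so 1 CPM stood for 19.2 to 26.2 counts. All 13 markers of neural stem and progenitor cells were above 1 CPM on average. Their summed level was 6576 to 7339 CPM in Control and 8601 to 9869 CPM in PTN, without overlap. Vim made up the largest part of it, at 3438, 3381 and 3527 CPM in Control and 4978, 5077 and 5439 CPM in PTN. By gene, 3 of the 13 lay higher and 2 lower without overlap (38.5%, against 32.9% of all genes tested). Of the 13, Egfr and Vim were called higher and Hes5 lower by edgeR (15.4% and 7.69%, against 4.93% and 3.06% of all genes tested). The astrocyte filament gene Gfap was at 3652 ± 76.6 CPM in Control and at 342, 1685 and 414 CPM in PTN, and neural stem cells can express it too. Summed markers of endothelial and mural cells (8 genes, 3 of them under 1 CPM) were at 105 to 121 CPM in Control and 57.3 to 70.2 CPM in PTN. Cspg4 was the largest part of them, at 63.1 and 34.9 CPM on average. Summed markers of fibroblasts and meninges (6 genes, 2 under 1 CPM) were at 90.6 to 114 and 17.5 to 39.5 CPM. These sums were mostly Pdgfra, at 95.3 and 24.4 CPM on average. Neuron sums, at 264 to 398 against 312 to 524 CPM, and ependymal sums, at 72.8 to 91.3 against 58.9 to 109 CPM, overlapped. Oligodendrocyte lineage sums, mostly Olig1, were at 1309 to 1489 against 1101 to 1295 CPM. Of the 8 tested genes of that list 7 had a negative log2 fold change, with a median of -0.85. Pdgfra and Cspg4 were called lower by edgeR (25%, against 3.06% of all genes tested). Pdgfra stands in both the oligodendrocyte and the fibroblast list and Cspg4 in both the oligodendrocyte and the endothelial list. The part of these other markers in the results above was not tested.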

How the data were processed

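The authors deposited 1 table that pairs every gene with expected counts and FPKM in the 6 libraries. Not given in the sources used here were aligner, counting program, genome build and gene models. Per the labels' protocols, total RNA from a Qiagen RNeasy kit went into SMARTER libraries. Expected counts, as deposited, are estimated reads per gene, not scaled between libraries, and at least 91.9% in each library were whole within 0.005. FPKM values, as deposited, are divided by gene length and library depth. Columns were matched to samples by group initial and replicate number, as C1 or P1.

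Expected counts were rounded, filtered with filterByExpr (13161 of 22322 genes) and scaled by TMM. PTN was compared with Control by edgeR's quasi-likelihood test (edgeR 4.0.16, R 4.3.3) with Benjamini-Hochberg adjustment over all genes tested, called under 0.05. The SE is the log2 fold change divided by the square root of F, and folds come from the fitted value. The edgeR fit was checked on simulated counts with planted changes, a common dispersion and no length trend. Alternatives used DESeq2 1.42.0, limma-voom 3.58.1, other scalings and filters, a replicate block, removal of a length trend (length implied by count and FPKM) and each library left out. The genes, the 6 wider lists and the motifs were chosen with earlier results of these data known. Named from each list were the 5 called genes of smallest p, or the smallest p where none was called, and Nr3c2, Hsd11b1, Hsd11b2, Fkbp4, Per1, Klf9, Hif1a and Epas1 always. Genes most like Nr3c1 and Fam107a were sought among tested genes of at least 1 CPM on average, and 1 of those most like Nr3c1 is not reported here. Other listed genes were named after their values were seen, for their role. None of the 10 genes had fractional counts. In the GENCODE M21 annotation, genes on the opposite strand overlap Hif3a, Glul, Fkbp5 and Errfi1, and use of strand in counting is not stated in those sources.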

Additional observations from a re-analysis of the deposited data

How the results depend on the processing

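The 10 genes kept the sign of their log2 fold change in all 15 alternative fits. Genes called higher and lower over the whole table, 649 and 403, became 1134 and 774 by DESeq2 and 1089 and 824 at an adjusted p under 0.1, and 201 to 1273 and 130 to 904 with 1 library left out. Members called higher, 1 of 10, became 0 by limma-voom and 0 with the length trend removed, and 0 to 1 with 1 library left out, while those called lower, 4, ranged over 3 to 5.

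By DESeq2 1 gene of the receptor machinery was called higher, 8 other glucocorticoid-induced genes were called higher, 4 relatives and partners higher and 6 lower, 1 hypoxia response gene higher and 4 lower, and 5 ATF4 response genes higher and 2 lower. At an adjusted p under 0.1 the numbers were 1 for the machinery, 8 for the induced genes, 8 higher for the repressed inflammatory genes, 4 higher and 5 lower for relatives and partners, 1 higher and 4 lower for hypoxia, and 5 higher and 2 lower for ATF4. Relatives and partners called higher were 1 with upper-quartile scaling and 0 with the length trend removed. Hypoxia genes called lower were 1 with DESeq2 size factors, 4 with upper-quartile scaling, 4 with no filter, 4 by limma-voom and 0 with the length trend removed.

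With 1 library left out, calls higher and lower ranged over 0 to 1 and 0 to 1 for the machinery, 0 to 5 and 1 to 5 for the induced genes, 2 to 6 and 0 to 0 for the repressed genes, 0 to 5 and 2 to 4 for relatives and partners, 0 to 1 and 0 to 5 for hypoxia, and 0 to 4 and 0 to 3 for ATF4.

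Correlations of the deviations of same-numbered libraries from their group means across genes were -0.48, 0.395 and 0.0804 for replicates 1, 2 and 3. Those of replicate 2 deviated together, those of 1 and 3 did not, and not every library correlated best with its own number, so the numbers were not taken to pair the samples. With the replicate number as a block 454 genes were called higher and 272 lower, relatives and partners called higher were 0 and hypoxia genes called lower 1. Adjusted p by edgeR with that block was 0.0804 for Per1, 0.0691 for Tgfbr3, 0.0507 for Egfr, 0.126 for Arnt2, 0.132 for Nedd4l, 0.0618 for Ldha and 0.0684 for Ddit3. The genes with under 5 CPM, such as Zbtb16, Nr3c2, Hsd11b1, Ccl7 and Car9, rest on the fewest counts. With other letters the motif count over the 8 genes with windows was 3 for ACANNNTGT and 3 for TGTTCT, against 2.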
